A study of Danio rerio with 15 samples.

Results

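Ubiquitin is a small protein that cells attach to other proteins, most often as a signal for their destruction by the proteasome. Attachment runs through a relay of enzymes. An E1 activates ubiquitin, an E2 carries it, and an E3 ligase chooses the protein that receives it. Many E3 ligases are built on a cullin scaffold, and in those built on Cul1 an F-box protein binds the substrate. Deubiquitinases of the USP, UCH and OTU families take ubiquitin off again. In the fish egg these enzymes are supplied by the mother, and maternal messenger RNAs are later removed while the embryo begins to transcribe its own genes.

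The set described here holds every probe set of the zebrafish array whose only gene symbol begins with ube, uba, usp, uch, otu, cul or fbxo, apart from ube2g2, uchl1 and fbxo5, which were left out by name. It comprises 111 probe sets for 92 genes, of 15502 probe sets tested; 8793 genes on the array had at least 1 probe set with a single symbol. The rule reads the symbol alone and no measured value, but it was chosen with earlier results of these data known. No filter on dim probe sets was applied. By role there were 4 probe sets of E1 enzymes, 31 of E2 enzymes, 2 of ubiquitin ligases with a ube symbol, 8 of cullins, 20 of F-box proteins, 32 with a usp symbol, 9 of UCH and OTU enzymes and 5 of other proteins with a uba symbol. The symbol rule also takes in usp6nl, a regulator of Rab GTPases, and uspl1, which acts on SUMO, so neither is a ubiquitin protease. There were 17 genes with more than 1 probe set, and usp37 had 4.

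Transcript levels were measured on 15 Affymetrix arrays, each with RNA from 20 whole embryos kept at 28 °C. The groups were MZdicer mutants injected with miR-430 (n = 3), uninjected MZdicer mutants at 9 hours after fertilisation (n = 3), wild type injected with miR-430 (n = 3), uninjected wild type at 9 hours (n = 3), and the TLAB wild-type strain at the 16-cell stage (n = 2) and at 50% epiboly (n = 1). MZdicer embryos are without Dicer from either the mother or their own genome. Dicer processes microRNA precursors, and miR-430 is a microRNA family that promotes the clearance of maternal messenger RNAs. The injections were made at the 1-cell stage. The labels give no age for the injected embryos, no strain for the 9 h and injected groups, no dicer1 allele and no mock injection, so effects of miR-430 and of being injected cannot be told apart. Whether replicates are different clutches is not labelled, and the p-values then reflect only how these samples vary, which may be technical. RNA came from whole embryos, so fewer cells with a transcript and less transcript per cell cannot be told apart. Complementary DNA was primed at the poly(A) tail, so levels also reflect tail length.

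The dicer1 probe set, read as the targeted gene, had 250 to 291 units of normalised intensity in injected MZdicer, 290 to 314 in MZdicer, 551 to 579 in injected wild type and 444 to 500 in wild type at 9 h. The position of that probe set relative to the mutation is not stated in the labels. Within groups, arrays correlated at Pearson's r between 0.983 and 0.997. The ratio of the middle to the 5′ control probe sets of acta1, which can rise where RNA or its copies are incomplete, averaged 12.4 ± 0.329 in injected MZdicer, 18.2 ± 2.59 in MZdicer, 9.55 ± 0.754 in injected wild type and 9.92 ± 1.11 in wild type (SD, n = 3 each); its part in the results below was not tested. In deposited intensity the 3′ acta1 probe set read 149 to 155 in MZdicer and 126 to 153 in wild type. The middle one read 1813 to 2291 in MZdicer and 1171 to 1475 in wild type. With the 3′ probe set this far below the middle one, the ratio alone does not show how intact the RNA was. The file headers give a hybridisation date and time, and arrays that share both are called a hybridisation run here. All MZdicer and injected MZdicer arrays fell in the same run. Uninjected wild type fell in 2 other runs that held no injected wild type, and its replicate 1 was scanned on a day of its own. The file headers list station 1 for all injected MZdicer arrays and station 2 for all uninjected MZdicer arrays. Injection and station therefore cannot be told apart in MZdicer. MZdicer arrays, injected or not, shared no hybridisation run with uninjected wild type, so these genotypes and runs cannot be told apart. In the fits of 12 arrays, a block for scan day only sets wild-type replicate 1 apart, which nearly repeats leaving that array out. Fits used limma, with p-values adjusted by Benjamini-Hochberg across the 15502 probe sets, and a probe set was called where the adjusted p was under 0.05. Log2 changes are on the scale log2(intensity + 16), given ± SE, and understate the change of dim transcripts. Because probes differ in brightness, the level of each member probe set was compared only with itself across samples. The marker sums and control ratios combine different probe sets, and brighter ones weigh more in a sum.

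From the 16-cell stage to 9 h most of these genes changed, and falls outnumbered rises. At 9 h 38 of 111 probe sets were called higher and 60 lower than at 16 cells, which is 88.3% called, against 75.7% of all probe sets tested (35.6% higher and 40.0% lower). The median log2 change was -0.36 over the members and -0.08 over all probe sets. The 16-cell and 50% epiboly arrays were hybridised and scanned apart from those of 9 h, so stage and hybridisation run cannot be told apart. The split moved with the scaling of the arrays, to 28 higher and 64 lower with intensities as deposited and to 26 higher and 67 lower with median centring. Over all 15502 probe sets these scalings gave 6655 higher and 5479 lower, and 5783 higher and 6001 lower, at 9 h. Of 9 listed markers of egg and germ cells 8 were measured, and their summed level was 1472 to 1661 units in wild type at 9 h, against 42643 to 43142 at 16 cells. Markers of the enveloping layer (6 of 9 measured) summed to 48024 to 50219 units at 9 h, against 333 to 351 at 16 cells, where krt5 and krt97 were listed at 0. The acta1 ratio of middle to 5′ probe sets was 4.16 at 16 cells, 15.1 at 50% epiboly and 9.92 at 9 h, the 3′ to 5′ ratio of GAPDH was 0.371, 0.225 and 0.162 in the same order, and their part in the stage differences was not tested.

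Among the conjugating enzymes, uba3 and ube2d2l showed the deepest falls, as measured by the fitted log2 change. Uba3, a subunit of the E1 that activates the ubiquitin-like protein NEDD8, had 3260 and 2978 units at 16 cells, 379 at 50% epiboly and 387, 391 and 383 at 9 h. Ube2d2l belongs to the UbcH5 family of E2 enzymes, which work with many different ligases. It had 2810 and 2763 units at 16 cells, 477 at 50% epiboly and 324, 344 and 356 at 9 h. In both cases the drop was already present on the single 50% epiboly array. The log2 change of 9 h over 16 cells was -2.96 ± 0.08 for uba3 (adjusted p = 1.24e-14) and -2.97 ± 0.08 for ube2d2l (adjusted p = 1.41e-14, limma). Ube2al, of the RAD6 type that in yeast ubiquitinates histone H2B, had 5866 and 5843 units at 16 cells, 1534 at 50% epiboly and 1264, 1053 and 1154 at 9 h, a log2 change of -2.33 ± 0.09 (adjusted p = 4.56e-13).

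Uba1, the main E1 for ubiquitin, stood apart from these: its 5 arrays of 16-cell and 9 h wild type all lay between 1775 and 1935 units. Its log2 change was 0.06 ± 0.05 (adjusted p = 0.223), and with median centring it became a called fall. Uba2, an E1 subunit for SUMO, had 1483 and 1445 units at 16 cells, 2267 at 50% epiboly and 2378, 2590 and 2438 at 9 h, a rise of 0.75 ± 0.06 (adjusted p = 7.07e-09). Uba7, which in mammals activates ISG15, rose by 1.02 ± 0.24 on the log2 scale (adjusted p = 0.00139). Of 31 E2 probe sets 13 rose and 12 fell by 9 h, and under both other scalings the split was 11 higher and 14 lower. Among all probe sets 35.6% were higher and 40.0% lower in the main fit.

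The largest rise of an E2 was that of ube2e2. It had 68.1 and 69.0 units at 16 cells, 1327 at 50% epiboly and 3163, 2713 and 2713 at 9 h, a log2 change of 5.09 ± 0.08 (adjusted p = 1.22e-17). Ube2v1, which lacks the catalytic cysteine and in mammals and yeast partners Ubc13 to build lysine-63 chains, had 309 and 313 units at 16 cells and 889 to 989 at 9 h. Ube2v2, its close relative, rose as well, with 1481 and 1487 units at 16 cells and 2948 to 3031 at 9 h, while ube2na, a Ubc13 homologue, had 2746 and 2547 units at 16 cells and 2540 to 2951 at 9 h and was not called (adjusted p = 0.305).

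F-box and USP transcripts fell more often than they rose. Of 20 F-box probe sets 6 were called higher and 13 lower at 9 h, the same counts under the other scalings. Of 32 USP probe sets 11 rose and 20 fell by 9 h. Among all probe sets 35.6% were higher and 40.0% lower in the main fit. The number of USP probe sets that rose dropped to 4 with intensities as deposited and to 2 with median centring. Over all 15502 probe sets these scalings gave 6655 and 5783 higher, against 5526 in the main fit. Fbxo43, whose mammalian and frog homologues (Emi2) block the anaphase-promoting complex to hold the egg in meiosis, had the deepest fall of the named members. It had 2331 and 2416 units at 16 cells, 58.3 at 50% epiboly and 42.6, 23.8 and 26.6 at 9 h, a log2 change of -5.69 ± 0.19 (adjusted p = 1.12e-13). Usp20, a ubiquitin protease, had 527 and 515 units at 16 cells, 14.3 at 50% epiboly and 17.6, 14.7 and 13.6 at 9 h. The 16-cell arrays lay far above the other arrays for both genes. Otud4, an OTU deubiquitinase, had 716 and 657 units at 16 cells, 136 at 50% epiboly and 22.1, 22.9 and 0 at 9 h. Further falls were those of usp42 (log2 change -2.90 for 1 probe set), usp11 (-2.83), usp37 (-2.48 for 1 probe set), usp33 (-2.46), uspl1 (-1.94) and uchl3 (-1.88).

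The most pronounced rise was that of fbxo44.9, one of several zebrafish F-box genes named after mammalian FBXO44. Its 16-cell arrays read 0 and 4.99 units, the 50% epiboly array 7388, and the 9 h arrays 2590, 2862 and 3035. It was the only F-box probe set at least 2-fold lower at 9 h than at 50% epiboly, and the 9 h change over 16 cells was 7.28 ± 0.19 on the log2 scale (adjusted p = 6.01e-15). Fbxo2, whose mammalian homologue binds glycoproteins, had 453 and 521 units at 16 cells, 1278 at 50% epiboly and 1447, 1260 and 1255 at 9 h. The proteasome-associated deubiquitinases usp14 and uchl5 both rose, usp14 by 1.13 ± 0.08 and uchl5 by 1.55 ± 0.11 and 0.92 ± 0.16 for its 2 probe sets. Other rises were those of fbxo44.5 (1.64 and 1.42 for 2 probe sets), ube2q1 (1.30), fbxo28 (1.28), ubald1a (1.18) and fbxo9 (1.17).

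Cullin scaffolds mostly fell between these stages, with 2 probe sets called higher and 5 lower of 8, and 1 higher and 6 lower under both other scalings. Among all probe sets 35.6% were higher and 40.0% lower in the main fit. Cul1b (-1.51), cul5b (-1.19), cul5a (-1.04) and both probe sets of cul4b (-0.92 and -0.66) were called lower. One probe set of cul3a, the scaffold that binds BTB proteins, had 10.7 and 8.42 units at 16 cells, 122 at 50% epiboly and 175, 190 and 192 at 9 h (log2 change 2.98 ± 0.13, adjusted p = 3.27e-12). The other probe set of cul3a differed far less, with 552 and 517 units at 16 cells and 557 to 737 at 9 h; its log2 change of 0.25 (adjusted p = 0.0322) lost its call without either 16-cell array or without 9 h replicate 1 or 3 (adjusted p up to 0.181), and turned negative with intensities as deposited and with median centring. Cul1a, a scaffold of SCF ligases, was not called (0.02 ± 0.08, adjusted p = 0.842) and also turned with scaling, to a called fall in both alternatives. Of the 17 genes with several probe sets, ube2g1b, usp10, usp37 and usp7 had probe sets called in opposite directions between the stages.

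**Figure D1:**
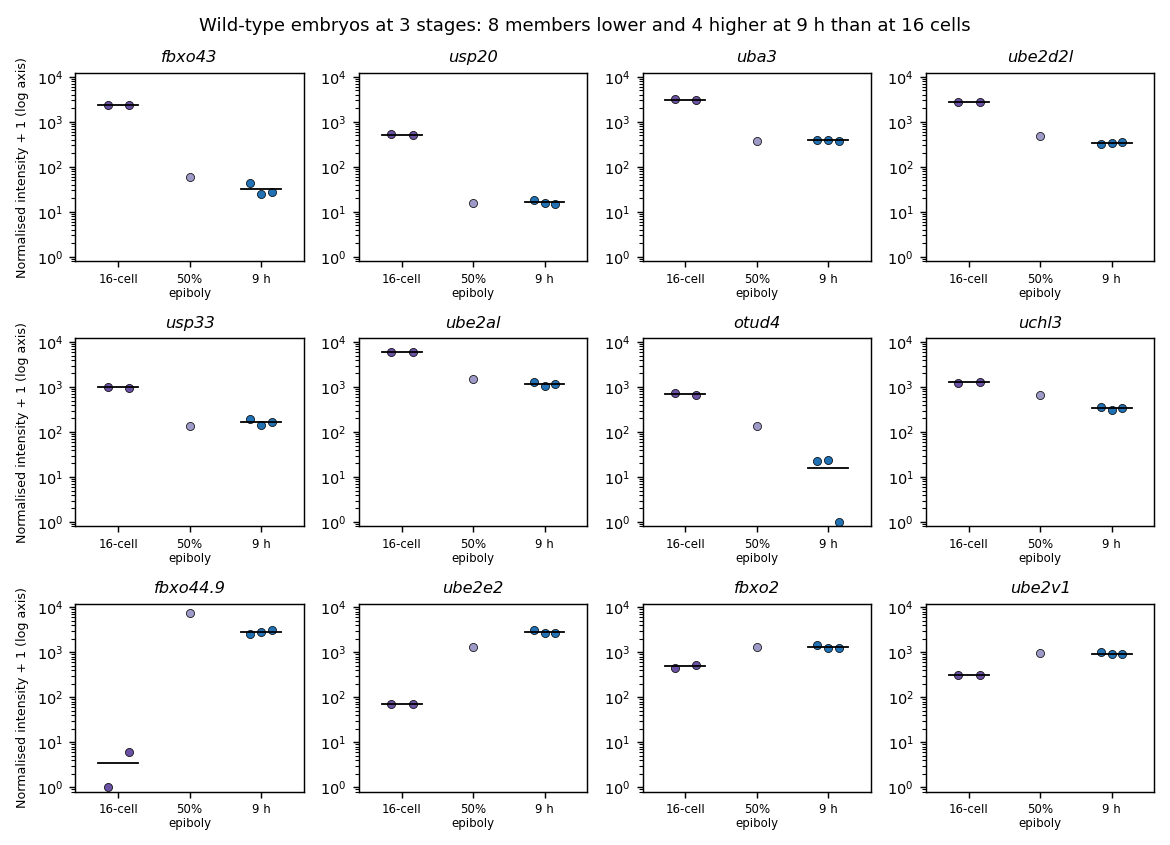
Normalised intensity plus 1 on a log axis for 12 members in wild type at the 16-cell stage (2 arrays), 50% epiboly (1 array) and 9 h (3 arrays). Points are arrays and lines are means; 8 genes lie lower at 9 h and 4 higher, and fbxo44.9 reads 0 and 4.99 units on the 16-cell arrays.

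Most of the stage difference was already present at 50% epiboly, where the single array allows no test. At 50% epiboly 15 members were at least 2-fold higher and 33 at least 2-fold lower than at 16 cells, against 17.4% and 19.5% of all probe sets (37.0% past 2-fold either way). By role, 11 of 32 USP probe sets were at least 2-fold lower and none was 2-fold higher, and of 20 F-box probe sets 9 were lower and 5 higher. Between 50% epiboly and 9 h 107 members stayed within 2-fold. At 9 h the 2 that were at least 2-fold higher were ube2e2 and 1 probe set of ube2ql1, and the 2 that were lower were fbxo44.9 and otud4 (1.79% and 2.90% of all probe sets, 4.69% either way).

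Comparing MZdicer with wild type at 9 h asks which transcripts differ in embryos without Dicer. Of the 111 probe sets 37 were called higher and 29 lower in MZdicer, which is 59.5%, against 47.4% of all probe sets tested (22.2% higher and 25.2% lower). The median log2 change was 0.05 over the members and -0.07 over all probe sets. With 1 probe set per gene, 31 of 92 genes were higher and 27 lower. The split between rises and falls depended on scaling: it was 44 higher and 17 lower with intensities as deposited, and 33 higher and 31 lower with median centring. Over all 15502 probe sets the split moved as well, to 4265 higher and 2294 lower, and to 3173 and 4649. With the scan day as a block the split of the members was 39 higher and 26 lower. A random block for hybridisation run gave 35 and 27. Over all probe sets these blocks gave 3504 higher and 3983 lower, and 3196 and 3423. MZdicer and wild type shared no hybridisation run, so neither block separates genotype from run. None of the 17 genes with several probe sets had opposite calls. The enveloping-layer markers summed to 45166 to 46519 units in MZdicer, against 48024 to 50219 in wild type. The egg and germ cell markers summed to 1665 to 1849 units in MZdicer, against 1472 to 1661 in wild type, and 5 yolk-layer markers to 9613 to 9860 units in MZdicer, against 9961 to 10169 in wild type. The part of these differences in the results was not tested.

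**Figure D2:**
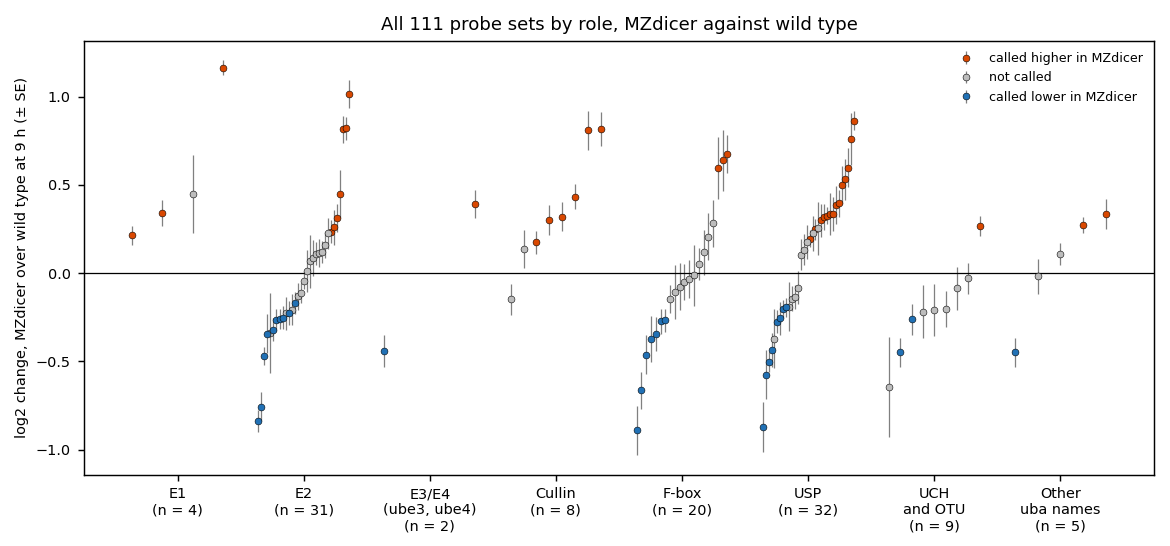
Log2 change of MZdicer over wild type at 9 h for all 111 probe sets, ordered by value within each role; bars are SE (n = 3 arrays per group). Orange points were called higher and blue points lower in MZdicer; the cullins hold 6 orange points, no blue point and 2 grey ones.

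E1 enzymes gave the largest single rise. Uba1 had 4182, 4056 and 4099 units in MZdicer, against 1812, 1857 and 1935 in wild type. Every MZdicer array lay above every wild-type array by more than 2-fold, and the log2 change was 1.16 ± 0.04 (adjusted p = 6.35e-10, limma). Uba3 had 514, 482 and 497 units in MZdicer, against 387, 391 and 383 in wild type, a rise of 0.34 ± 0.07 (adjusted p = 0.00188). Uba2 rose by 0.21 ± 0.05 (adjusted p = 0.00569), although not with intensities as deposited (adjusted p = 0.0587) or with median centring (adjusted p = 0.753). Uba7 overlapped between the groups (log2 change 0.45 ± 0.22, adjusted p = 0.114), and was called higher in MZdicer with intensities as deposited (0.59, adjusted p = 0.0419).

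Among the 31 E2 probe sets 7 were called higher and 10 lower in MZdicer, a split that turned to 10 higher and 7 lower with intensities as deposited. The shares of all probe sets were 22.2% higher and 25.2% lower. Ube2al had 2331, 2322 and 2295 units in MZdicer, against 1264, 1053 and 1154 in wild type (log2 change 1.01 ± 0.08, adjusted p = 4.62e-07). Ube2h, which works with the CTLH ligase in mammals and its GID counterpart in yeast, had 984, 1060 and 1056 units in MZdicer, against 577, 587 and 576 in wild type (0.82 ± 0.06, adjusted p = 4.14e-07). The groups did not overlap for either gene. A contrast appeared within the UbcH5 family. Ube2d2l had 608, 620 and 637 units in MZdicer, against 324, 344 and 356 in wild type, and rose by 0.82 ± 0.08 (adjusted p = 2.09e-06). Ube2d2 had 1167, 1297 and 1286 units in MZdicer, against 2052, 2107 and 2127 in wild type, and fell by 0.76 on the log2 scale (SE 0.08, adjusted p = 5.74e-06). Probes of such close relatives may detect each other's transcripts, which was not tested. Ube2q1, an E2-like enzyme, was the deepest fall of the group: it had 422, 377 and 388 units in MZdicer, against 737, 726 and 712 in wild type (-0.84 ± 0.06, adjusted p = 2.27e-07). For ube2g1b, a homologue of an E2 that acts at the endoplasmic reticulum, 1 probe set fell (-0.47 ± 0.05) and the other was not called (0.01 ± 0.12).

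Both ligases with a ube symbol changed, in opposite directions. Ube4b, a U-box protein that lengthens ubiquitin chains, had 584, 594 and 579 units in MZdicer, against 455, 406 and 462 in wild type (0.39 ± 0.08, adjusted p = 0.00125). Ube3d had 159, 163 and 148 units in MZdicer, against 204, 226 and 241 in wild type (-0.44 ± 0.09, adjusted p = 0.00125).

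The cullins moved in 1 direction where they were called: 6 of 8 probe sets were higher in MZdicer and none lower, and the counts were 6 and 0 with intensities as deposited and 5 and 0 with median centring. Among all probe sets 22.2% were higher and 25.2% lower. Both cul4b probe sets are among the 6, and the calls of cul1a and cul5b were lost in alternatives given below. Their median log2 change was 0.31. A probe set of cul4b, the scaffold that binds DDB1, had 1200, 1140 and 1281 units in MZdicer, against 796, 596 and 662 in wild type (0.82 ± 0.10, adjusted p = 1.33e-05). The other cul4b probe set rose by 0.32 ± 0.08 (adjusted p = 0.00595). The cul3a probe set that was nearly silent at 16 cells had 364, 324 and 366 units in MZdicer, against 175, 190 and 192 in wild type (0.81 ± 0.11, adjusted p = 5.05e-05), whereas the other cul3a probe set was not called (-0.15 ± 0.09, adjusted p = 0.186; called lower without wild-type replicate 2, adjusted p = 0.0385). The 2 cul3a probe sets therefore gave different pictures of the gene. Cul5a rose by 0.43 ± 0.07 and cul5b, the second scaffold that pairs with SOCS-box proteins, by 0.30 ± 0.09; the call of cul5b was lost without wild-type replicate 2 (adjusted p = 0.0573). Cul1b was not called (0.14 ± 0.11), but was called higher with the scan day as a block (0.26, adjusted p = 0.0328) and without wild-type replicate 1 (0.26, adjusted p = 0.0332). These 2 alternatives are nearly the same fit. Cul1a rose by 0.17 ± 0.06 (adjusted p = 0.0369), but its call was lost in 9 alternatives, with adjusted p between 0.0553 and 0.278, among them leaving out MZdicer replicate 1 or 3 or wild-type replicate 1 or 3.

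Of 20 F-box probe sets 3 were called higher and 7 lower in MZdicer, and 4 and 4 with intensities as deposited, against 22.2% higher and 25.2% lower among all probe sets. Their median log2 change was -0.06, near the -0.07 of all probe sets. Fbxo32, which in mammalian muscle is the atrophy-linked ligase subunit atrogin-1, had 350, 277 and 315 units in MZdicer, against 490, 657 and 689 in wild type (-0.89 ± 0.14, adjusted p = 0.000153). Fbxo44.5 fell in both probe sets, by 0.66 and 0.34 on the log2 scale. Fbxo2 had 1940, 2223 and 2111 units in MZdicer, against 1447, 1260 and 1255 in wild type (0.67 ± 0.11, adjusted p = 0.000215). Fbxo44.9, the gene that appeared between 16 cells and 50% epiboly, had 2776, 2832 and 2780 units in MZdicer, against 2590, 2862 and 3035 in wild type, and was not called (adjusted p = 0.957).

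Among the 32 USP probe sets 14 were higher and 8 lower in MZdicer by the test, and 17 and 3 with intensities as deposited and 13 and 7 with median centring. The shares of all probe sets by the test were 22.2% higher and 25.2% lower. Usp5, which takes apart free ubiquitin chains, had 2584, 2484 and 2431 units in MZdicer, against 1464, 1330 and 1366 in wild type (0.86 ± 0.06, adjusted p = 7.37e-08). Usp16, known in mammals for removing ubiquitin from histone H2A, had 166, 168 and 178 units in MZdicer, against 279, 413 and 336 in wild type (-0.87 ± 0.14, adjusted p = 0.000225). Usp36, a nucleolar deubiquitinase in other animals, fell in both its probe sets. One had 520, 498 and 484 units in MZdicer, against 734, 724 and 698 in wild type (-0.50 ± 0.06, adjusted p = 1.29e-05), and the other (-0.44 ± 0.09) lost its call with intensities as deposited (adjusted p = 0.113). Usp37 rose in 2 of its 4 probe sets (0.40 and 0.25), and the other 2 gave 0.11 and 0.18 and were not called. Uspl1 rose by 0.39 ± 0.11 and usp38 fell by 0.58 on the log2 scale.

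UCH and OTU enzymes had 1 probe set called higher and 2 lower of 9, against 22.2% higher and 25.2% lower among all probe sets. Uchl3, a hydrolase that trims small adducts from ubiquitin, had 229, 237 and 246 units in MZdicer, against 367, 301 and 344 in wild type (-0.45 ± 0.08, adjusted p = 0.000592). Otub1b, whose mammalian homologue OTUB1 also inhibits E2 enzymes, had 759, 742 and 748 units in MZdicer, against 606, 643 and 611 in wild type (0.27 ± 0.06, adjusted p = 0.00144). Of the other uba-named genes, ubald1a fell by 0.45 on the log2 scale while ubap2b rose by 0.27, a call lost with median centring (adjusted p = 0.125).

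Egg-supplied transcripts decline while the embryo takes over transcription, so the members were also read by their drop between 16 cells and 50% epiboly, which uses no array of the MZdicer comparison. The 33 members at least 2-fold lower at 50% epiboly than at 16 cells had 16 probe sets called higher and 2 lower in MZdicer, or 48.5% and 6.06%, with a median log2 change of 0.25. Among all 3028 probe sets chosen in the same way, 38.2% were higher and 14.8% lower, with a median of 0.15. The share of the members that was lower was 14.6% with median centring and 0% when they were chosen at 4-fold. For these settings the matching shares of all probe sets are not given. The other 78 members had 21 higher and 27 lower, or 26.9% and 34.6%. Of all probe sets tested, chosen or not, 22.2% were higher and 25.2% lower. Chosen probe sets thus had more rises and fewer falls across the whole array too, so this contrast is not particular to the members. The 16 risers were led by ube2al (1.01), ube2d2l (0.82), usp42 (0.76), fbxo25 (0.64) and usp12a (0.60), and took in uba3, cul5b, fbxo43 and usp20. The values of usp42 and fbxo25 are for 1 of 2 probe sets each. The other usp42 probe set was not among the 33 (log2 difference -0.57). Usp20 had 33.0, 27.0 and 27.8 units in MZdicer, against 17.6, 14.7 and 13.6 in wild type, still far below its 16-cell level. The 2 that fell were fbxo30a (-0.46) and usp44 (-0.19). Usp12a, usp44 and fbxo30a were named here after their values were seen, as was any other member of this group outside the naming rule. The member just inside the 2-fold limit was ube2g1a (log2 difference -1.01) and the one just outside was usp38 (-0.97). Uba1, the largest rise in MZdicer, was not in this group: its log2 difference between 50% epiboly and 16 cells was -0.30.

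**Figure D3:**
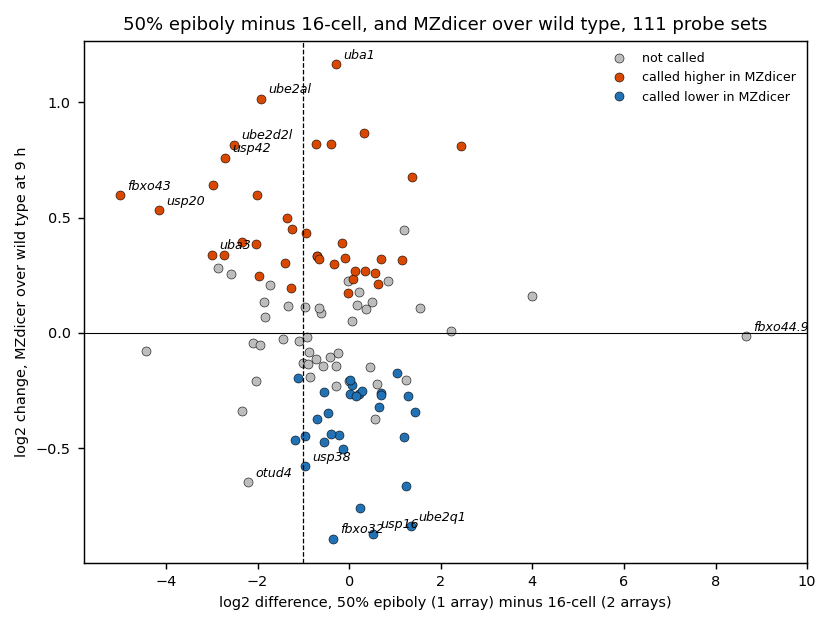
Log2 difference of the 50% epiboly array minus the mean of the 16-cell arrays (x axis) against the log2 change of MZdicer over wild type at 9 h (y axis) for 111 probe sets; the dashed line marks a 2-fold drop. Left of it lie 33 probe sets, of which 16 are orange (higher in MZdicer) and 2 blue (lower).

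Injection of miR-430 into MZdicer embryos asks which transcripts respond when this microRNA is supplied. Of 111 probe sets 9 were called higher and 20 lower in injected than in uninjected MZdicer, which is 26.1%, against 24.6% of all probe sets (11.9% higher and 12.7% lower). With intensities as deposited 4 were higher and 20 lower, against 1309 higher and 2086 lower of all probe sets. The share called in the main fit was thus near that of the whole array. Injected and uninjected MZdicer were listed at different stations, which cannot be told apart from injection. The yolk-layer markers summed to 10104 to 11009 units in injected MZdicer, against 9613 to 9860 in MZdicer. Mesoderm and neural markers (8 of 9 measured) summed to 25195 to 25431 units in injected MZdicer, against 25854 to 26507 in MZdicer. The part of these differences was not tested. This comparison and that of MZdicer with wild type share the uninjected MZdicer arrays, so their values are given side by side and no overlap is read.

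Uba1 had 1749, 1853 and 1811 units in injected MZdicer, against 4182, 4056 and 4099 in MZdicer (-1.21 ± 0.04, adjusted p = 1.56e-09). The injected arrays overlapped the wild-type arrays given above. Set against uninjected wild type, injected MZdicer differed by -0.05 ± 0.04 (adjusted p = 0.384; -0.15 and called with median centring, adjusted p = 0.0287). Ube4b had 382, 304 and 349 units in injected MZdicer, against 584, 594 and 579 in MZdicer (-0.72 ± 0.08, adjusted p = 1.96e-05). Here the injected arrays also lay below every wild-type array, and the difference from wild type was -0.33 ± 0.08 (adjusted p = 0.00665), a call lost with intensities as deposited (adjusted p = 0.188) and with only the arrays compared (adjusted p = 0.0525).

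Ube2al had 1493, 1502 and 1491 units in injected MZdicer, against 2331, 2322 and 2295 in MZdicer (-0.64 ± 0.08, adjusted p = 6.75e-05), and still exceeded wild type by 0.37 ± 0.08 (adjusted p = 0.00367). The cul4b probe set that rose by 0.82 in MZdicer had 856, 810 and 777 units in injected MZdicer, against 1200, 1140 and 1281 in MZdicer (-0.56 ± 0.10, adjusted p = 0.000704). Its difference from wild type was 0.25 and was not called. That difference was called with intensities as deposited (0.37, adjusted p = 0.0351) and without the dimmest 40% of probe sets (adjusted p = 0.0479). The same held with the scan day as a block (0.37, adjusted p = 0.00606) and without wild-type replicate 1 (0.36, adjusted p = 0.00609). Ube2q1, in contrast, was higher in injected than in uninjected MZdicer. It had 684, 682 and 657 units in injected MZdicer, against 422, 377 and 388 in MZdicer (0.73 ± 0.06, adjusted p = 1.89e-06), and its difference from wild type was -0.10 ± 0.06 (adjusted p = 0.231). Usp5 had 1833, 1977 and 2066 units in injected MZdicer, against 2584, 2484 and 2431 in MZdicer (-0.36 ± 0.06), and remained above wild type by 0.51 ± 0.06 (adjusted p = 2.56e-05).

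Further falls in injected MZdicer were those of fbxo25 (-0.76 for 1 of its 2 probe sets), usp33 (-0.50), ubald1b (-0.50), ubap2b (-0.34) and usp8, an endosomal deubiquitinase (-0.27). Otub1b fell by 0.17 on the log2 scale, a call lost in 10 alternatives with adjusted p up to 0.106. Further rises were those of ubald1a (0.37), ube3d (0.35), otud5a (0.35), ube2q2 (0.32) and fbxo9 (0.27). Of these, ube3d lost its call without MZdicer replicate 3 (adjusted p = 0.0516), and otud5a and fbxo9 lost theirs with intensities as deposited (adjusted p = 0.0896 and 0.0588). Among the cullins only that cul4b probe set was called, and 0 of 8 were called higher. The counts lower were 3 with intensities as deposited and 2 with median centring. Cul5a was called lower under both (adjusted p = 0.0298 and 0.0434) and without the dimmest 40% of probe sets (adjusted p = 0.0393), and cul5b with intensities as deposited (adjusted p = 0.0441), without the trend (adjusted p = 0.0465) and with the scan day as a block (adjusted p = 0.0443).

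Of the 39 members that were called and at least 2-fold lower at 9 h than at 16 cells, none was called higher and 4 were called lower in injected MZdicer, ube2al, ube2s, fbxo25 and usp33. That is 10.3% lower, against 21.8% lower and 8.36% higher among the 3252 probe sets chosen in the same way, and the median log2 changes were -0.07 and -0.05. The share lower was 17.1% with intensities as deposited and 21.4% when members were chosen at 4-fold, and 2.22% were higher with median centring. The matching shares of all probe sets are not given for these settings, so a move of the whole array cannot be told apart. The arrays that chose these members are not in the comparison that was read.

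**Figure D4:**
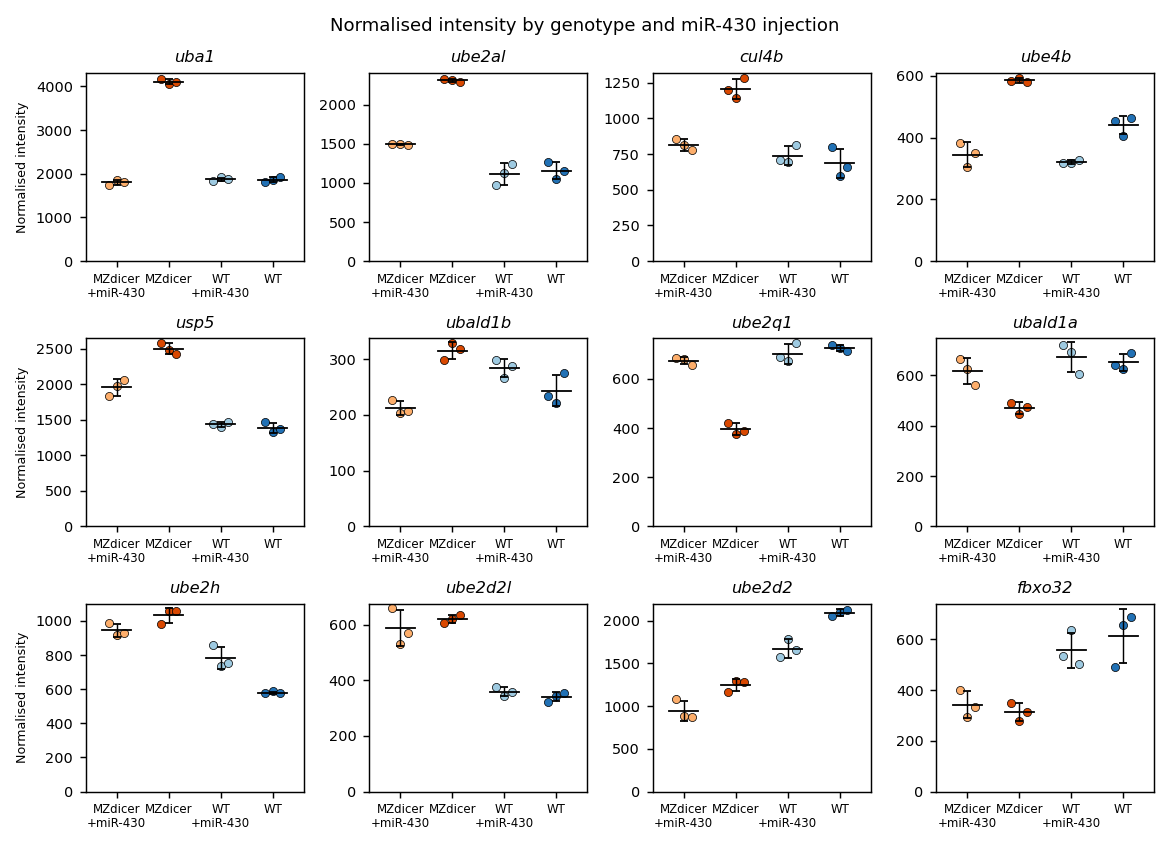
Normalised intensity of 12 members (the probe set of highest mean of each gene) in injected MZdicer, MZdicer, injected wild type and wild type; points are arrays, lines are means and bars are SD (n = 3 each). Uba1 reads 4056 units or more in uninjected MZdicer and 1935 or less in the other 3 groups.

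In wild type the injection was followed by fewer calls. Of 111 probe sets 7 were called higher and 8 lower in injected wild type, which is 13.5%, against 14.1% of all probe sets (7.34% higher and 6.81% lower). Median centring gave 6 higher and 12 lower, and the scan day as a block gave 7 higher and 3 lower. Over all probe sets these gave 951 higher and 1381 lower, and 1165 and 884. Without single arrays the counts ranged over 4 to 7 higher and 3 to 7 lower: the higher count was 4 without injected replicate 2 or 3 or wild-type replicate 3, and the lower count was 3 to 5 without any 1 of the injected replicates or wild-type replicate 1 or 3. Over all probe sets the main fit called 1138 higher and 1055 lower. Without injected replicates 1, 2 and 3 in turn these were 767 and 705, 818 and 698, and 774 and 721. Without wild-type replicates 1, 2 and 3 in turn they were 1168 and 883, 844 and 815, and 717 and 621. No F-box probe set was called. Injected and uninjected wild type shared no hybridisation run, so injection and run cannot be told apart in wild type. With the run as a random block 6 were called higher and 6 lower, against 962 and 867 of all probe sets. The egg and germ cell markers summed to 1777 to 1956 units in injected wild type, against 1472 to 1661 in wild type, and the yolk-layer markers to 10359 to 10707 units in injected wild type, against 9961 to 10169 in wild type; their part was not tested.

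The cul3a probe set that was near 10 units at 16 cells had 429, 396 and 373 units in injected wild type, against 175, 190 and 192 in wild type (0.98 ± 0.11, adjusted p = 8.84e-05). That probe set was therefore higher than in uninjected wild type in the 3 other groups. The other cul3a probe set was not called between injected and uninjected wild type. Ube2h had 858, 735 and 755 units in injected wild type, against 577, 587 and 576 in wild type (0.42 ± 0.06, adjusted p = 0.000911). Usp49 had 134, 132 and 129 units in injected wild type, against 76.9, 60.2 and 67.7 in wild type (0.80 ± 0.12, adjusted p = 0.000605). Cul1a rose by 0.28 ± 0.06 (adjusted p = 0.00883). Uba3 (0.31) and ube2d1a (0.22) were also called, but uba3 lost its call without the third wild-type array or without injected replicate 2 or 3 (adjusted p = 0.0511 to 0.0623), and ube2d1a in 9 alternatives, among them without any 1 injected replicate or wild-type replicate 1 or 3 (adjusted p up to 0.137).

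Ube4b had 319, 317 and 328 units in injected wild type, against 455, 406 and 462 in wild type (-0.42 ± 0.08, adjusted p = 0.00338). Otub1b had 451, 476 and 454 units in injected wild type, against 606, 643 and 611 in wild type (-0.41 ± 0.06, adjusted p = 0.000359). Ube4b was thus called lower after injection in both genotypes, and the difference between its 2 injection effects was not called (-0.30 ± 0.11, adjusted p = 0.0724; called without injected MZdicer replicate 1, adjusted p = 0.017). Ube2d2 was also lower after injection in both, by -0.41 ± 0.08 in MZdicer and by -0.34 ± 0.08 in wild type (adjusted p = 0.0022 and 0.0143), and its interaction was -0.07 ± 0.11 (adjusted p = 0.719). The wild-type call of ube2d2 was lost without either injected replicate 1 (adjusted p = 0.0668) or the third wild-type array (adjusted p = 0.055). Usp7, a regulator of Mdm2 and p53 in mammals, fell in 1 of its 2 probe sets (-0.39), uchl3 fell by 0.31 and usp42 by 0.24 in 1 of 2 probe sets, and each of these 3 calls was lost in at least 4 alternatives, among them without injected replicate 3 or wild-type replicate 1. These alternatives count the scan day as a block apart from leaving out wild-type replicate 1, although the 2 fits are nearly the same.

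The interaction tests whether injection changed a transcript differently in MZdicer and in wild type. It was called for 26 members, 9 with a more positive and 17 with a more negative change in MZdicer, which is 23.4%, against 22.7% of all probe sets (10.7% and 12%). With intensities as deposited the split was 4 and 16, and with median centring 14 and 12. Over all probe sets it was 1069 and 1976, and 1945 and 1673. Uba1 had the largest value (-1.22 ± 0.06, adjusted p = 1.14e-07): injection changed it by -1.21 in MZdicer and by 0.01 ± 0.04 in wild type. The cul3a probe set followed (-1.01 ± 0.16, adjusted p = 0.000494), with -0.03 ± 0.11 in MZdicer and 0.98 ± 0.11 in wild type. The uba1 value thus came from the MZdicer arrays and that of this cul3a probe set from the wild-type arrays. Injection cannot be told apart from station in MZdicer or from hybridisation run in wild type. The interaction therefore cannot be told apart from these either. The other cul3a probe set was not called in the interaction. Ubald1b (-0.70) and 1 probe set of cul4b (-0.68) were also negative. Ube2q1 was the most positive (0.78 ± 0.09, adjusted p = 4.18e-05), followed by ube3d (0.41), 1 probe set of usp36 (0.40) and usp3 (0.38). The calls of ube3d, usp36 and usp3 were lost with intensities as deposited (adjusted p = 0.102, 0.0531 and 0.118), and that of ube3d also without 8 of the 12 arrays, each left out in turn. No F-box probe set was called, but 1 was with median centring, and fbxo15 was called without injected MZdicer replicate 1 (-0.58, adjusted p = 0.0374).

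**Figure D5:**
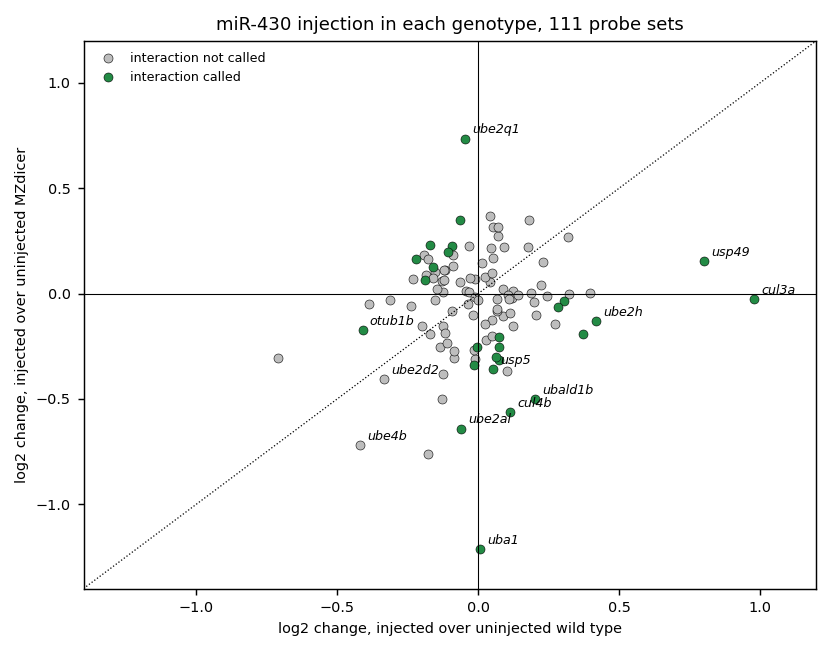
Log2 change of injected over uninjected wild type (x axis) against that of injected over uninjected MZdicer (y axis) for 111 probe sets; the dotted line marks equal changes. Green points have a called interaction. Uba1 lies at -1.21 on the y axis and near 0 on the x axis. The labelled cul3a probe set lies at 0.98 on the x axis and near 0 on the y axis.

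Injected MZdicer was then set against uninjected wild type, to see which members still differed. Of 111 probe sets 19 were called higher and 16 lower, which is 31.5%, against 31.3% of all probe sets (16.3% higher and 15% lower). The split was 27 higher and 10 lower with intensities as deposited, and 17 higher and 22 lower with median centring. Over all probe sets these scalings gave 3175 higher and 1430 lower, and 2307 and 2911. Usp42 had 1 probe set called higher (0.62) and 1 lower (-0.20). The enveloping-layer markers summed to 43692 to 46018 units in injected MZdicer, against 48024 to 50219 in wild type. The mesoderm and neural markers summed to 25195 to 25431 units in injected MZdicer, against 25715 to 26298 in wild type. The part of these differences was not tested. Ube2d2 was the deepest fall, with 1083, 880 and 870 units in injected MZdicer, against 2052, 2107 and 2127 in wild type (-1.16 ± 0.08, adjusted p = 6.95e-07). Usp16 had 172, 147 and 197 units in injected MZdicer, against 279, 413 and 336 in wild type (-0.87 ± 0.14, adjusted p = 0.000524), and fbxo32 differed by -0.78 ± 0.14. In uninjected MZdicer the changes of usp16 and fbxo32 over wild type were -0.87 and -0.89, and injected over uninjected MZdicer differed by 0.00 ± 0.14 and 0.11 ± 0.14.

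On the higher side, ube2d2l had 660, 533 and 573 units in injected MZdicer, against 324, 344 and 356 in wild type (0.73 ± 0.08, adjusted p = 1.77e-05). Ube2h (0.69), fbxo2 (0.66) and usp5 (0.51) were also higher in injected MZdicer than in wild type. So were cul3a (0.78 for 1 of 2 probe sets) and usp37 (0.40 for 1 of 4 probe sets). By the test 3 of 8 cullin probe sets lay above wild type, 1 each of cul3a, cul4b and cul5a, and 0 below. Cul5a lost its call with only the arrays compared (adjusted p = 0.0988). It also did so without injected replicate 2 or 3 or wild-type replicate 2 or 3 (adjusted p up to 0.109). That cul4b probe set lost its call with the scan day as a block and with only the arrays compared. It also did so without injected replicate 3 or wild-type replicate 1 (adjusted p = 0.0622 and 0.0787). None of ube2d2l, ube2h, fbxo2, usp37 and cul3a was called between injected and uninjected MZdicer. Fbxo44.5 (-0.50 for 1 of 2 probe sets), uchl3 (-0.48) and usp8 (-0.48) were lower. Of 4 E1 probe sets 2 lay above wild type by the test, uba2 among them, and 0 below. Uba2 lost its call with intensities as deposited (adjusted p = 0.0837) and with median centring (adjusted p = 0.442). Cul1b was not called in the main fit. It was called higher with intensities as deposited (adjusted p = 0.0449) and with the scan day as a block (adjusted p = 0.0109).

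Other genes of the ubiquitin system, outside the symbol rule, were read from 6 lists with 256 genes, of which 144 were measured with 1 probe set each. The lists were read in the main fit only, and the splits over all probe sets moved with scaling, as given above. In MZdicer 34 of them were called higher and 45 lower than in wild type, or 23.6% and 31.3%, against 22.2% and 25.2% of all probe sets. The HECT and RING ligases had 10 higher and 23 lower of 57, and the neddylation and COP9 signalosome genes 5 higher and 1 lower of 13. The SCF adaptors had 4 higher and 6 lower of 19, other cullin adaptors 3 and 3 of 17, SUMO genes 3 and 4 of 10, and other deubiquitinases and ubiquitin-binding proteins 9 and 8 of 28. Cand1, which exchanges the substrate adaptors of cullins, averaged 2661 units in MZdicer and 1595 in wild type (0.75 ± 0.06, adjusted p = 2.57e-07). Skp1, the adaptor that joins F-box proteins to Cul1, rose by 0.47 ± 0.07, while the F-box protein skp2 fell by 0.49 on the log2 scale. Spop, a BTB adaptor of Cul3, rose by 0.72 ± 0.06 and the Cul4-associated ddb2 by 0.96 ± 0.15, whereas dcaf13 fell by 0.84.

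Among the ligases, herc2 (0.96) and mdm4 (0.84), a partner of Mdm2 in restraining p53, rose, and arih2 (-1.05) and siah1 (-0.83) fell. Mdm4 averaged 292 units in injected MZdicer, 578 in MZdicer, 318 in injected wild type and 309 in wild type. Arih2 averaged 758 units in injected MZdicer, 487 in MZdicer, 984 in injected wild type and 1026 in wild type. Tollip, an endosomal ubiquitin-binding adaptor, averaged 161 units in MZdicer and 384 in wild type and was called lower. Josd2, a deubiquitinase, fell by 0.79 on the log2 scale, whereas ubl7a was called higher at low levels (29.8 ± 5.20 units in MZdicer and 6.47 ± 6.26 in wild type, SD, n = 3 each). Of the 144 genes, 19 were called higher and 20 lower after injection in MZdicer, or 13.2% and 13.9%, against 11.9% and 12.7% of all probe sets. After injection in wild type 8 were higher and 13 lower, or 5.56% and 9.03%, against 7.34% and 6.81%. Injected MZdicer against uninjected wild type gave 17 higher and 30 lower (11.8% and 20.8%, against 16.3% and 15%), and the interaction was called for 26 with a more positive and 14 with a more negative change (18.1% and 9.72%, against 10.7% and 12%). At 9 h 44 were called higher and 70 lower than at 16 cells, or 30.6% and 48.6%, against 35.6% and 40.0%.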

How the data were processed

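The authors deposited 1 linear intensity per probe set and array, of which 44 to 284 per array were below 0; their summarisation and scaling are not given here by any label or header. Median deposited intensities were 155 to 196 per array, and the number of arrays limits the precision. After quantile normalisation, negative intensities were set to 0 and log2(intensity + 16) was fitted with limma 3.58.1 in R 4.3.3 (lmFit, contrasts.fit, eBayes with trend). Of 15617 probe sets 115 controls were left out. The injected groups and the uninjected 9 h groups shared a fit over 12 arrays (8 residual degrees of freedom), and the stages over 15 arrays (9). Printed levels come from the normalisation of all 15 arrays. The platform annotation gave 1 symbol to 10795 probe sets, several to 135 and none to 4572; each of the 111 members was found by Entrez identifier in RefSeq's GRCz12tu table, with no symbol differing. In a list, a gene was represented by its probe set of highest mean.

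Members and lists were chosen with earlier results of these data known. Named members were, for MZdicer against wild type and between stages, up to 12 rises and 12 falls that were called, had no overlap between arrays and a mean intensity at or above the median probe set, up to 6 and 6 for the other comparisons and 4 and 4 for the interaction, together with all E1 enzymes and cullins and, per comparison, up to 2 members of each other role with the smallest p. From each list up to 2 genes per direction were named. No sequence was read.

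Tested on simulated data with 15502 probe sets for the contrast of MZdicer with wild type, the fit called 62 of 67 changes of 1.5-fold, 64 of 67 of 2-fold and 66 of 66 of 4-fold, with 10 false calls. The changes were placed only in probe sets above the median level, with independent noise and no batch. Far fewer probe sets were changed than the 7344 called in the real contrast. The simulation therefore checks the code and does not measure missed or false calls in these data. Scan day and hybridisation run were taken from the dates in the file headers. Replicate numbers were not used to pair arrays: 3 of 18 same-number pairs had deviations from the group means correlated over 0.1 (range -0.229 to 0.257). Alternatives were intensities as deposited, median centring, pseudocounts of 1 and 64, a filter removing the dimmest 40%, and no trend. Others were a block for replicate, scan day or hybridisation run, fitting only the groups compared, and omitting single arrays. Folds of 1.5 and 4 were used as alternatives for the choice of maternally supplied members. The scan-day block and omitting wild-type replicate 1 gave nearly the same fit of 12 arrays but were counted as separate alternatives.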

Additional observations from a re-analysis of the deposited data

Results flagged for a closer look

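The injection effects in MZdicer and in wild type differed by the interaction test (limma, adjusted over 15502 probe sets) for 9 members with a more positive and 17 with a more negative change in MZdicer. These differences cannot be told apart from station in MZdicer or from hybridisation run in wild type. Among E1 and E2 enzymes that the naming rule picked, a negative difference was found for uba1 (-1.22 on the log2 scale), uba3 (-0.34), ube2al (-0.58), ube2h (-0.55) and ube2v1 (-0.28). A positive one was found for ube2q1 (0.78) and 1 probe set of ube2g1b (0.25). The ligase ube3d had 0.41. Of the uba-named proteins, ubald1b had -0.70 and ubap2b -0.33. Of the deubiquitinases, otub1b had 0.24, usp3 0.38, 1 probe set of usp36 0.40, usp49 -0.65 and usp5 -0.41. Of the cullins, cul1a had -0.35, 1 probe set of cul3a -1.01 and 1 probe set of cul4b -0.68. The called members outside the rule were named after their values were seen. Those with a negative difference were ube2l3b, usp6nl and 1 probe set each of ube2e3, ube2s and usp7. Those with a positive one were ube2l3a, ube2nb and usp44. The call of otub1b was lost in 14 alternatives (adjusted p up to 0.253), that of uba3 in 6, each without 1 array (up to 0.0768), and that of ubap2b with median centring (0.103). Groups of 3 arrays are too small for the search for single outlying arrays. Fbxo44.9 read 5004 units on injected MZdicer replicate 1, against 2720 and 2757 on the other 2 arrays of that group.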

How the results depend on the processing

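Scaling and the set of arrays or probe sets fitted moved the counts. Scaling moved the counts over all probe sets as well, as given above, and so did leaving out arrays for injected over uninjected wild type. With intensities as deposited, 17 members were lower in MZdicer than in wild type, 4 higher in injected than uninjected MZdicer, 5 lower in injected wild type, 10 lower in injected MZdicer than in wild type, and 4 more positive in the interaction, which had 14 with median centring. The median log2 change of 16 cells over 9 h across all probe sets was 0.08, against -0.15 with intensities as deposited and -0.02 with median centring. On the scale of 16 cells over 9 h, uba1 turned to 0.22 with median centring, cul1a to 0.22 as deposited and 0.35 with median centring, and 1 cul3a probe set to 0.12 and 0.25. Members lower in injected wild type numbered 3 with the scan day as a block and 5 with only the arrays compared, and those lower in injected MZdicer than in wild type numbered 9 with only the arrays compared; the causes were not tested. Without the dimmest 40% of probe sets, which also removes members, 19 were 2-fold higher at 16 cells than at 50% epiboly, and between 9 h and 50% epiboly 2 passed 2-fold, 1 higher and 1 lower; a pseudocount of 64 left 1 higher. Chosen at 4-fold, 0% of maternally supplied members were lower in MZdicer, and with median centring 14.6%, without the matching shares of all probe sets. Leaving out 1 array at a time gave 31 to 39 higher and 24 to 29 lower for MZdicer over wild type, 6 to 11 and 15 to 19 for injected over uninjected MZdicer, 4 to 7 and 3 to 7 for injected over uninjected wild type, 14 to 23 and 11 to 18 for injected MZdicer over wild type, and 6 to 12 and 12 to 21 for the interaction. For 16 cells it gave 55 to 62 higher and 32 to 37 lower than 9 h, and 32 to 33 2-fold higher and 15 lower than 50% epiboly (47 to 48 in all), and for 9 h over 50% epiboly 1 to 2 higher and 2 lower (3 to 4 in all). The replicate number as a block gave 36 higher and 30 lower for MZdicer over wild type, 9 and 17 for injected MZdicer, 5 and 6 for injected wild type, 17 and 14 for injected MZdicer over wild type, 7 and 16 for the interaction, and 59 higher and 38 lower at 16 cells; 3 of 12 arrays correlated best with an array of their own number. The scan day could not be used as a block between stages. Of 2904 alternatives for 179 pairs of a named member and a comparison, 2763 kept direction and side of the threshold, 111 lost the call, 25 gained it and 5 reversed. The naming rule favoured called members with large changes or small p, so these counts do not measure the stability of all members. The 3 arrays per group limit the precision, and the change of dim transcripts is understated.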
